A study of Mus musculus with 2 samples.

Results

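CTCF binding was examined at 10 mouse genes that restrain or drive the passage of cells from G1 into S phase: Cdkn1a, Cdkn1b, Cdkn2a, Cdkn2b, Cdkn2c, Cdkn2d, Rb1, Trp53, Ccnd1 and Ccnd2. They were chosen by name from the 21938 protein-coding genes of GENCODE vM21, with earlier results of these data known. A CTCF peak was assigned to a gene when its summit lay inside the gene or within 50 kb of either end. The windows held 74 of the 62677 summits that lie on chromosomes 1 to 19, X and Y in the optimal set, the larger of the deposited sets filtered by the irreproducible discovery rate (IDR). The summits were listed 77 times, because 3 of them fall in the windows of both Cdkn2a and Cdkn2b.

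The study measured CTCF by chromatin immunoprecipitation and sequencing in hindbrain of newborn mice (P0, age 0 days) of strain B6NCrl, in 1 group of 2 libraries. No allele, treatment or second condition was part of the design. The tissue was pulverised and pooled from several dissections, the sex of the animals was not recorded, and both libraries name the same tissue sample, so their spread may be technical. Each value is an average over all cell types of the hindbrain, and peak lists hold no expression values with which the tissue label could be checked against marker genes.

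CTCF is a zinc finger protein that binds a long DNA motif with a direction. Together with cohesin it anchors chromatin loops, most often between motifs that point toward each other, and it can separate a gene from the regulatory elements of its neighbours. The D cyclins activate Cdk4 and Cdk6, which phosphorylate the retinoblastoma protein and release E2F factors; INK4 inhibitors block these kinases, CIP/KIP inhibitors act on several cyclin and kinase complexes, and p53 induces Cdkn1a after DNA damage. In the hindbrain of newborn mice the granule cell precursors of the cerebellum still divide, while many neurons have left the cycle.

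The sequences below are those of the summits that the descriptions turn on: strong motif-bearing summits inside, at the start of or beside the genes, the summit at the p19Arf start of Cdkn2a, and the pairs that lie on either side of Trp53 and Ccnd1. They are 100 bases of the RefSeq genome GRCm38.p6 (the sequence of mm10), written 5′ to 3′ on the strand of the motif. Capitals mark the best match to the CTCF core consensus, which has 14 positions. Both strands were searched up to 50 bp from a summit, and up to 2 mismatches were allowed.
Cdkn1a intron, chr17:29095591-29095690, minus strand: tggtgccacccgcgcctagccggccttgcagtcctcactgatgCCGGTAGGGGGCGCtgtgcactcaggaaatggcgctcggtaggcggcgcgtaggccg
Cdkn1b downstream, Lockd intron, chr6:134947533-134947632, minus strand: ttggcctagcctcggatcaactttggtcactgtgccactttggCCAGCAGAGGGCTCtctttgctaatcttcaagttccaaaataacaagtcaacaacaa
Cdkn2b start, chr4:89310586-89310685, minus strand: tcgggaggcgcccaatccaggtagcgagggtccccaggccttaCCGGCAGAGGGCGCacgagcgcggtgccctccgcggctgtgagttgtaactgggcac
Cdkn2a start of p19Arf, chr4:89294827-89294926, minus strand: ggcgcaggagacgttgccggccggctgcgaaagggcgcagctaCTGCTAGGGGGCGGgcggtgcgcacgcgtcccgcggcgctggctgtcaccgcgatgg
Rb1 intron, chr14:73303329-73303428, minus strand: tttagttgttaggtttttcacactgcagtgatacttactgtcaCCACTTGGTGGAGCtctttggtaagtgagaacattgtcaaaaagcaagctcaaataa
Trp53 upstream, Dnah2 intron, chr11:69546833-69546932, plus strand: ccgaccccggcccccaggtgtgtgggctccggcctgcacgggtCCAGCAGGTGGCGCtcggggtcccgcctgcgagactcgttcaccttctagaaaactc
Trp53 and Wrap53 starts, left side of the Trp53 pair, chr11:69579447-69579546, plus strand: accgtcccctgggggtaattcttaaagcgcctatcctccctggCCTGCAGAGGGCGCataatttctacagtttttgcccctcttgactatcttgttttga
near Shbg, right side of the Trp53 pair, chr11:69614096-69614195, minus strand: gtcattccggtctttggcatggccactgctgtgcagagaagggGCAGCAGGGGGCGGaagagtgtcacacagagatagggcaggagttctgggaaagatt
Ccnd1 intron, chr7:144937586-144937685, plus strand: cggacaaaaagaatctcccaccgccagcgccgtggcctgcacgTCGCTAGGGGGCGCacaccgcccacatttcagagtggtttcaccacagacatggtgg
LTO1, left side of the Ccnd1 pair, chr7:144918964-144919063, plus strand: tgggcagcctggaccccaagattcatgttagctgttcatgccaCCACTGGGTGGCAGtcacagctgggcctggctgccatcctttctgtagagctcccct
upstream of Ccnd1, right side of the Ccnd1 pair, chr7:144943426-144943525, minus strand: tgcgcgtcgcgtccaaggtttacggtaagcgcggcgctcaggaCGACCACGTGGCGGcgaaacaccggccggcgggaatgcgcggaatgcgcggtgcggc
Ccnd2 exon, chr6:127147827-127147926, plus strand: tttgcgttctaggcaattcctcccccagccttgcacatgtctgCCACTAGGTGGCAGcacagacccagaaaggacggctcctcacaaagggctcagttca
The matches at Ccnd2 and at the Dnah2 intron summit 33474 bp upstream of Trp53 had no mismatch, and these were the 2 perfect matches among the summits of all 10 genes. The other sequences shown carried 1 or 2 mismatches.

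Of the 74 summits, 46 (62.2%, Wilson 95% interval 50.8% to 72.4%, counting error only) had a match, against 65.4% of all optimal summits and 2.91% of windows of the same length 1 kb to either side of them. A match describes the letters at a summit and does not show that CTCF contacts them. The matches had 1 mismatch at 20 summits and 2 mismatches at 24, and 21 lay on the plus strand and 25 on the minus strand.

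Summits were dense around Trp53, Cdkn2d and the D cyclins, whose densities lay above the upper quartile of protein-coding genes, and those around the other 6 genes lay between the quartiles. The window of Ccnd1 held 16 summits, or 14.5 per 100 kb, a density above that of 98.9% of protein-coding genes. Trp53 followed with 15 summits and 13.5 per 100 kb, at the percentile 98.0. Cdkn2d, an INK4 gene in a gene-rich stretch of chromosome 9, had 10 summits and a density of 9.71 per 100 kb. Ccnd2 had 11 summits and 8.66 per 100 kb.

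The 50 kb limit had a few summits close to it: 49107 bp from Cdkn2d (signal 26.5) and 49399 bp from Trp53 (49.8) on the inside, and 50656 bp from Cdkn2d (100) and 51252 bp from Trp53 (20.8) on the outside.

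The distribution over all protein-coding genes had a median of 4.03 per 100 kb with quartiles of 1.85 and 6.78. Cdkn1a had 6 summits (5.47 per 100 kb) and Cdkn1b had 5 (4.76). Cdkn2b had 4 (3.82 per 100 kb) and Cdkn2a had 3, at the percentile 31.9. Rb1 held 5 summits over its much longer window, a density of 2.07 per 100 kb, and Cdkn2c held 2, a density of 1.88, close to the lower quartile. Each of the 10 windows held at least 1 summit, as did 87.7% of the windows of all protein-coding genes.

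**Figure D1:**
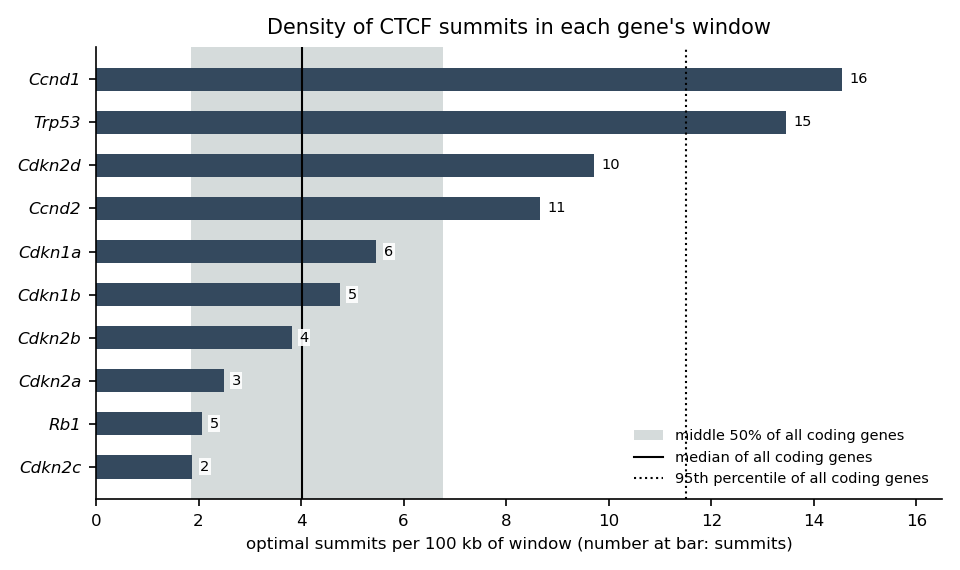
Summits per 100 kb of window (horizontal axis) for each of the 10 genes, with the number of summits beside each bar, a shaded band between the quartiles of all 21938 protein-coding genes, a solid line at their median and a dotted line at their 95th percentile. Ccnd1 and Trp53, at 14.5 and 13.5 per 100 kb, stand beyond the dotted line, and Cdkn2c has the lowest density, 1.88.

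An optimal summit lay within 1 kb of an annotated start site of the gene itself at 7 of the 10 genes, against 39.8% of all protein-coding genes. Protein-coding genes whose 5′ end is rich in CpG dinucleotides had a summit at an own start more often (58.1%) than the others (24.2%). A 5′ end was called CpG-rich at an observed to expected CpG ratio over 0.6 across 1001 bp. Among the 10 genes, 4 of the 7 with a CpG-rich 5′ end had such a summit, and so did the 3 others, Cdkn1a, Trp53 and Ccnd2. The ratio was taken at the 5′ end of the gene only, and the start summit of Cdkn1a lay 3181 bp from that end. Among the 31343 strongest optimal peaks a start summit was left at 3 of the 10 genes, Cdkn2b, Trp53 and Ccnd1, against 20.2% of all protein-coding genes. In the full set the genes without a summit at their own start were Cdkn1b, Cdkn2c and Rb1, and all 3 have CpG-rich 5′ ends.

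Among the 74 summits, 22 (29.7%) lay within 1 kb of the start of any gene, against 21.0% of all optimal summits. The windows surround coding genes, while all optimal summits include those far from genes, so the sets are unlike. With margins of 25 and 100 kb the share was 39.5% and 29.5%. Of the 22 summits, 10 lay at a start of the gene itself and 12 at a start of another gene. Windows of 5 genes, Cdkn1a, Cdkn2d, Trp53, Ccnd1 and Ccnd2, held 1 of the 1000 strongest optimal summits, against 10.6% of all protein-coding genes, a limit that was chosen after the values were seen. In 4 of them, all but Cdkn2d, that summit lay in the gene or within 1 kb of its span of start sites, against 2.31% of all protein-coding genes.

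**Figure D2:**
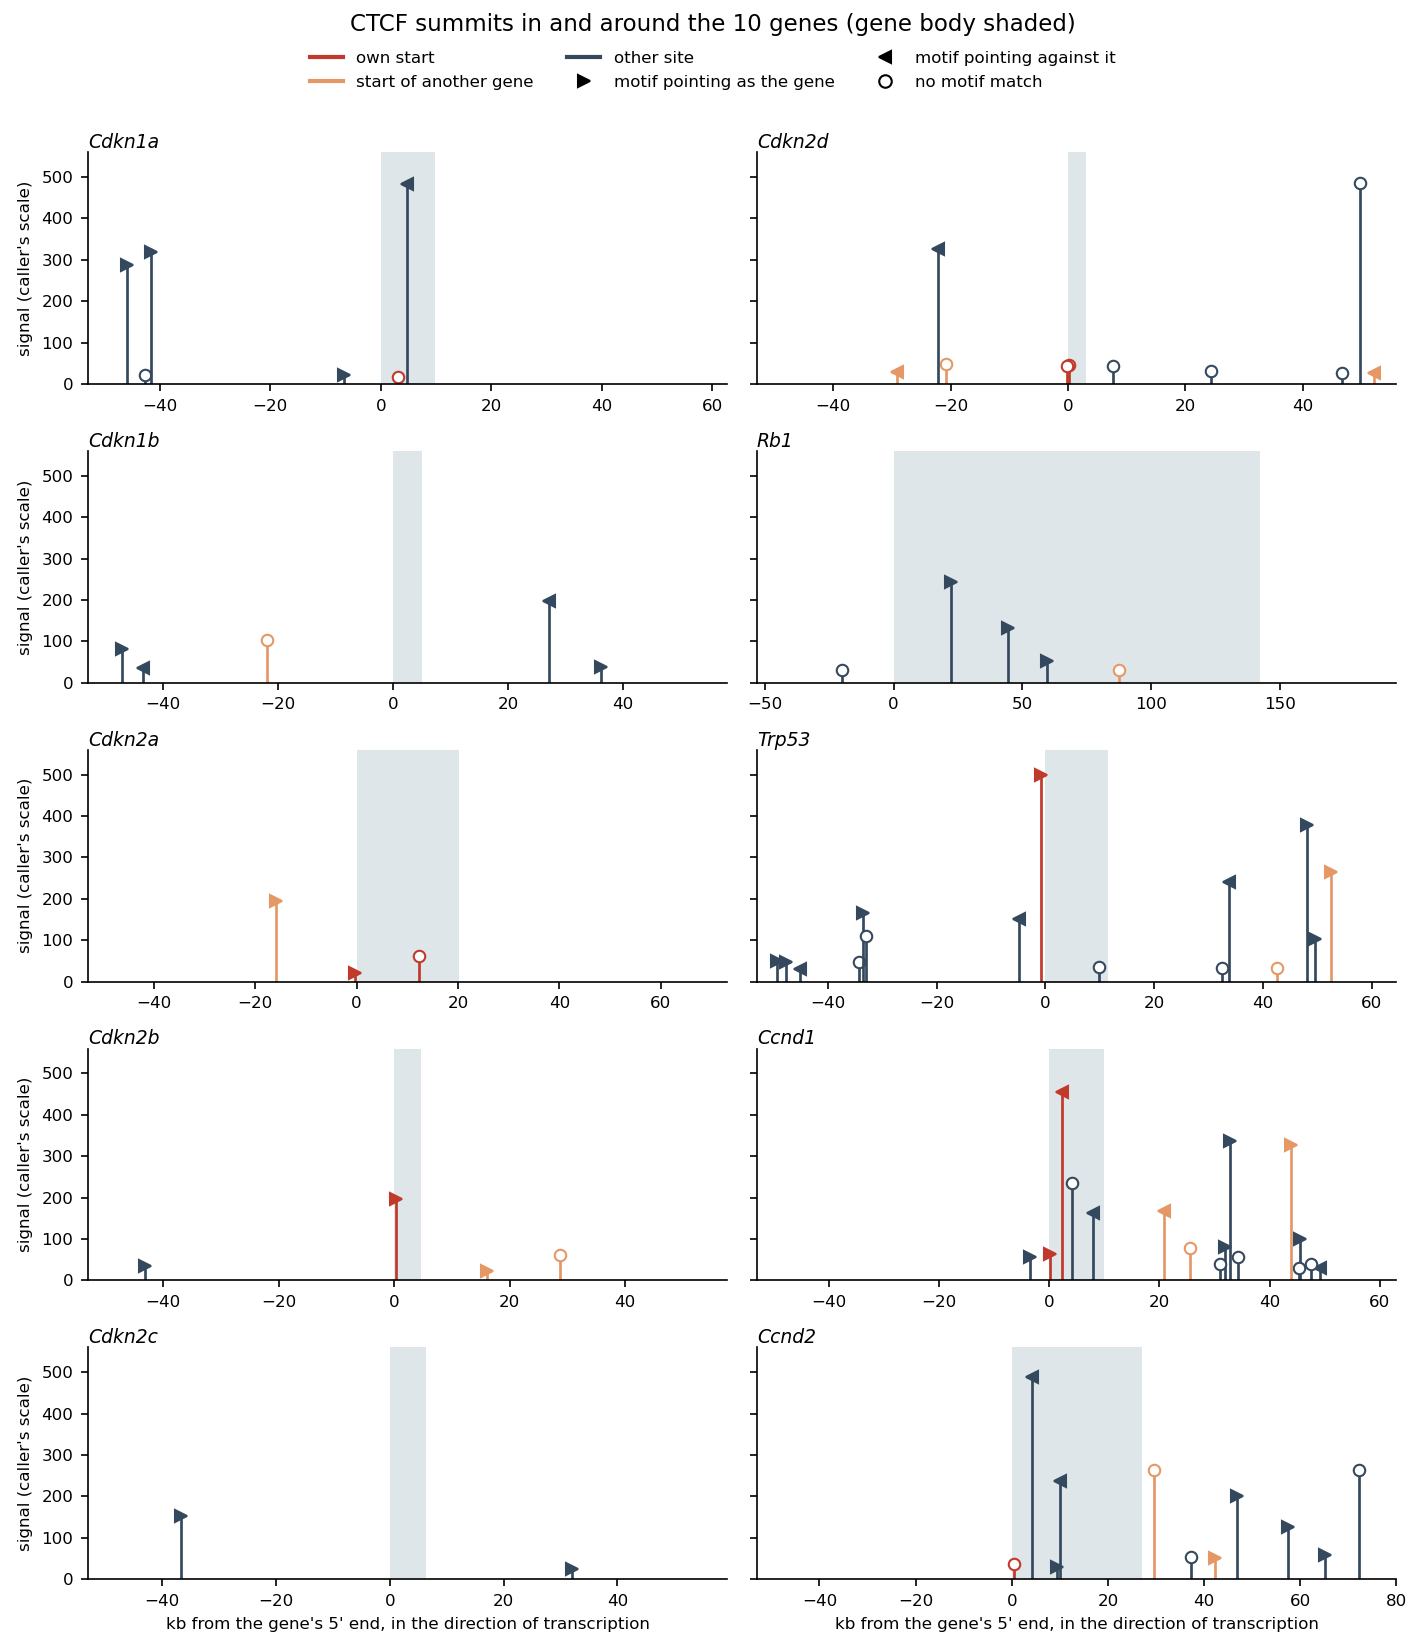
Signal of each summit (vertical axis, the caller's own scale) against its distance in kb from the 5′ end of the gene, read in the direction of transcription, with the gene body shaded and triangles for the direction of the motif. The strongest summits stand inside or at the edge of Cdkn1a, Trp53, Ccnd1 and Ccnd2, whereas the strongest summit of the Cdkn2d window lies 49868 bp beyond its 5′ end.

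Signal values below are those of the optimal set, which are the pooled values of both libraries on the peak caller's own scale. Rank 1 is the strongest peak of a list, the optimal set has 62686 peaks, and each library has its own list of 300000 peaks. The signals of the libraries are each on the scale of their own list and are not compared with each other.

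The CIP/KIP genes differed in where their strongest summit lay. Cdkn1a encodes p21, an inhibitor of cyclin and kinase complexes that p53 induces. Its strongest summit, at chr17:29095487-29095794 in an intron, had a signal of 483 and rank 452. It lay 1856 bp from the start of the coding transcript Cdkn1a-205 and 2263 bp from that of Cdkn1a-203, which starts further downstream. The overlapping peaks had a signal of 263 and rank 660 in library 1, and a signal of 221 and rank 338 in library 2.

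At the start of Cdkn1a itself the signal was low. The summit 376 bp from the start of Cdkn1a-205, which also lies 304 bp from the start of the unclassified transcript AC167363.2, had a signal of 17.0 and rank 61912. The libraries differed over it, with rank 52604 in library 1 and rank 153497 in library 2, and it was not in the conservative set, the smaller of the deposited sets filtered by IDR. It had no motif match. The other strong summits of the window stood far upstream near the splicing factor gene Srsf3, 41644 bp and 45882 bp from the 5′ end of Cdkn1a, with signals of 318 and 287, and their motifs pointed toward Cdkn1a while that of the intronic summit pointed back.

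Cdkn1b encodes p27, the inhibitor that holds many cells out of the cycle. No optimal summit lay inside the gene, and the nearest to its 5′ end was 21970 bp away, at the start of the receptor gene Gpr19 and the antisense transcript 2810454H06Rik. This Gpr19 summit had a signal of 104 and no motif match, with rank 25325 in library 1 and rank 26885 in library 2. The strongest summit of the window lay downstream, in an intron of the non-coding RNA gene Lockd, 27192 bp beyond the 5′ end of Cdkn1b. Its signal was 198, and its ranks of 15041 and 15167 in the libraries differed by a ratio of 1.01. Further summits in introns of Gpr19, 47102 bp and 43434 bp upstream, had signals of 82.6 and 36.1, and the latter was the nearest upstream summit with a motif.

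Below the limit of the optimal set, a weaker peak was listed at Cdkn1b. The pooled list of 251251 peaks held a peak 746 bp from a Cdkn1b start with a signal of 20.1 and rank 71577. Each library listed its strongest peak within 1 kb of the starts at rank 66956 and rank 60564, and among the 62686 strongest peaks of a library only library 2 placed a summit there.

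The INK4 genes Cdkn2a and Cdkn2b lie next to each other on chromosome 4. Cdkn2a encodes p16Ink4a from its downstream start and the p53 activator p19Arf from its upstream start, and Cdkn2b encodes p15Ink4b. Each of the 3 starts had an optimal summit, and the one at Cdkn2b was the strongest. The Cdkn2b summit, at chr4:89310533-89310709 and 411 bp inside the gene in its intron, had a signal of 196 and rank 15294. The libraries gave it rank 16337 and rank 13943, and it was present at the Cdkn2b start in all 5 peak sets compared: the optimal set, the conservative set, the 31343 strongest optimal peaks and the 62686 strongest peaks of each library.

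At Cdkn2a the start of the p16Ink4a transcript, Cdkn2a-201, had a summit at 100 bp with a signal of 60.8 and no motif match. Its ranks of 34917 and 34771 in the libraries were close. The start of the p19Arf transcript, Cdkn2a-202, had a summit at 243 bp with a signal of 21.5 and a match with 2 mismatches. It had rank 50075 in library 1, and no peak of library 2 overlapped it, so among the single-library lists this summit was found in that of library 1 alone. All 3 motif matches of the joint Cdkn2a and Cdkn2b region, at Cdkn2b, at p19Arf and 43069 bp upstream of Cdkn2b (signal 35.3), lay on the minus strand, the strand from which both genes are transcribed.

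Cdkn2c and Cdkn2d encode the INK4 inhibitors p18 and p19Ink4d, and Cdkn2d is known to stay expressed in neurons that have left the cycle. Cdkn2c had no summit inside the gene or at a start. Its 2 summits were 36581 bp upstream in an intron of Faf1, with a signal of 152 and ranks of 19153 and 19036, and 32047 bp from the 5′ end on the downstream side, with a signal of 24.8. The pooled list held a peak 345 bp from a Cdkn2c start with a signal of 10.4 and rank 134089, and in none of the 5 peak sets did a summit lie there.

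Cdkn2d had 2 weak summits at its starts, and the strong summits of its window lay near other genes. The own summits had signals of 44.9 and 42.7, lay 55 bp and 224 bp from a start, and had no motif match. The stronger of them had rank 48994 in library 1 and rank 33038 in library 2. The window's strongest summit, at chr9:21241384-21241714, lay 1373 bp from the receptor gene S1pr5 and had a signal of 486, with rank 321 in library 1 and rank 680 in library 2. It had no match within 2 mismatches (the best had 4), as was true of 66 of the 999 optimal summits on these chromosomes that rank among the 1000 strongest. The next, 1132 bp from Ap1m2, had a signal of 327, a match with 2 mismatches and ranks of 5890 and 5585. The third in strength lay 46 bp from the start of Ap1m2, with a signal of 49.1, no match and ranks of 35610 and 50983.

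Rb1, which encodes the retinoblastoma protein, was bound along its introns and had no optimal summit at any of its 6 annotated starts. The strongest summit, at chr14:73303279-73303493 and 22433 bp from the 5′ end, had a signal of 243, with ranks of 11444 and 11960. Downstream of it in the gene came summits with signals of 133 and 52.7, at 44604 bp and 59452 bp. The motifs of these 3 intronic summits all pointed in the direction of transcription, and ranks in the libraries differed by ratios of at most 1.12. The fourth summit inside Rb1 belonged to the start of Lpar6, a receptor gene nested in an Rb1 intron, and had a signal of 31.9 and no motif match.

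Outside Rb1 the window held a single summit, 19984 bp upstream, with a signal of 31.9. It had rank 43530 in library 1 and rank 93889 in library 2 and was not in the conservative set. The pooled list had a peak 361 bp from the start of the short Rb1 transcript Rb1-206, with a signal of 12.8 and rank 105253. In none of the 5 peak sets did a summit lie at an Rb1 start.

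Trp53, which encodes p53, had the highest signal of all 74 summits. The summit at chr11:69579296-69579628 had a signal of 499 and rank 299, and it lay 894 bp upstream of the start of Trp53-201. It is closer to the neighbouring Wrap53, a gene transcribed in the opposite direction that encodes a telomerase cofactor: it lay 141 bp from the start of Wrap53-201 and inside a Wrap53 intron. The libraries gave it a signal of 268 at rank 517 and a signal of 231 at rank 223. It was present in all 5 peak sets.

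The next strongest summits of the Trp53 window stood on the far side of the gene. A summit 4501 bp from Fxr2, which encodes an RNA-binding protein, had a signal of 379 and ranks of 3024 and 3623. The summit 181 bp from the Fxr2 start had a signal of 266 and ranks of 10008 and 9897. The summit 659 bp from Shbg had a signal of 240 and ranks of 12017 and 10840. Upstream of Trp53, further summits in introns of Dnah2 and Wrap53 had signals of 164, 152 and 109. Inside Trp53 there was 1 summit, in an exon, with a signal of 35.6 and no match.

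Both D cyclin genes had a strong summit inside the gene, a few kb from the start of the main coding transcript. In Ccnd1, at chr7:144937495-144937782, the summit had a signal of 454 and rank 865. It counts as an own start because it lay 556 bp from the start of Ccnd1-202, a transcript with a retained intron, and it was 2228 bp from the start of the coding transcript Ccnd1-201. Library 1 gave it a signal of 270 and rank 472, and library 2 a signal of 185 and rank 1637, the widest relative gap among the 73 summits with a rank in both libraries.

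At the coding start of Ccnd1 the signal was lower. The summit 22 bp from the start of Ccnd1-201, in an exon of the untranslated region, had a signal of 62.8, with rank 30689 in library 1 and rank 42584 in library 2. Further inside Ccnd1 lay summits with signals of 235, in an intron, and 163, in the exon of the untranslated region at the other end. Beyond the 3′ end the window held 11 more summits, the strongest in an exon of the non-coding Gm39119 (signal 337, ranks 4798 and 6264) and 521 bp from the start of Fgf15, a growth factor gene (signal 326, ranks 6981 and 5090).

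In Ccnd2, which encodes the D cyclin known for its role in dividing granule cell precursors, the strongest summit was at chr6:127147733-127148046, 3178 bp from the start of the coding transcript Ccnd2-201. It had a signal of 489, rank 384 and a perfect match. The libraries gave it a signal of 273 at rank 417 and a signal of 221 at rank 335. The summit nearest a coding start of Ccnd2, 451 bp from that of Ccnd2-206, had a signal of 36.6 and no match, with ranks of 54492 and 40520. On the downstream side the antisense transcript Gm43126 had a summit at 292 bp from its start (signal 265, no match), and an intron of Fgf23 had a summit with a signal of 265 and no match.

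At Cdkn1a, Ccnd1 and Ccnd2 the strongest summit lay 1856 bp, 2228 bp and 3125 bp downstream of the nearest coding start. At Cdkn1a it was also 2263 bp upstream of the coding start of Cdkn1a-203. This layout was noticed after the values were seen, and the share of all protein-coding genes that have it is not given here. The summit nearest to a coding start had a signal between 17.0 and 62.8 in these 3 genes. At Cdkn2b and Trp53 the summit within 1 kb of a coding start was itself the strongest of the window. The strongest summit of Ccnd1 also counts as an own start, through the retained-intron transcript Ccnd1-202 only. Inside the 10 genes lay 18 summits, of which 11 had a motif match.

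The ranks of the libraries were close for most of the 74 summits. The ratio of the larger to the smaller rank had a median of 1.20 and a 90th percentile of 1.88, against 1.16 and 1.61 over all optimal summits. The 5 summits among the 1000 strongest had a median ratio of 2.12, against 1.58 for all optimal summits of that range. Those of rank 1001 to 10000 had a median of 1.10 (1.24 over all), and those of rank 10001 to 31343 of 1.07 (1.11 over all). The 39 weaker summits had a median of 1.25, against 1.19 over all. The p19Arf summit, with no overlapping peak in library 2, has no ratio. Library 1 gave the better rank at 35 summits and library 2 at 38. An overlapping peak stood among the 62686 strongest of both libraries for 62 of the 74 (83.8%), against 82.8% of all, and 64 (86.5%) overlapped a conservative peak, against 87.1%.

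**Figure D3:**
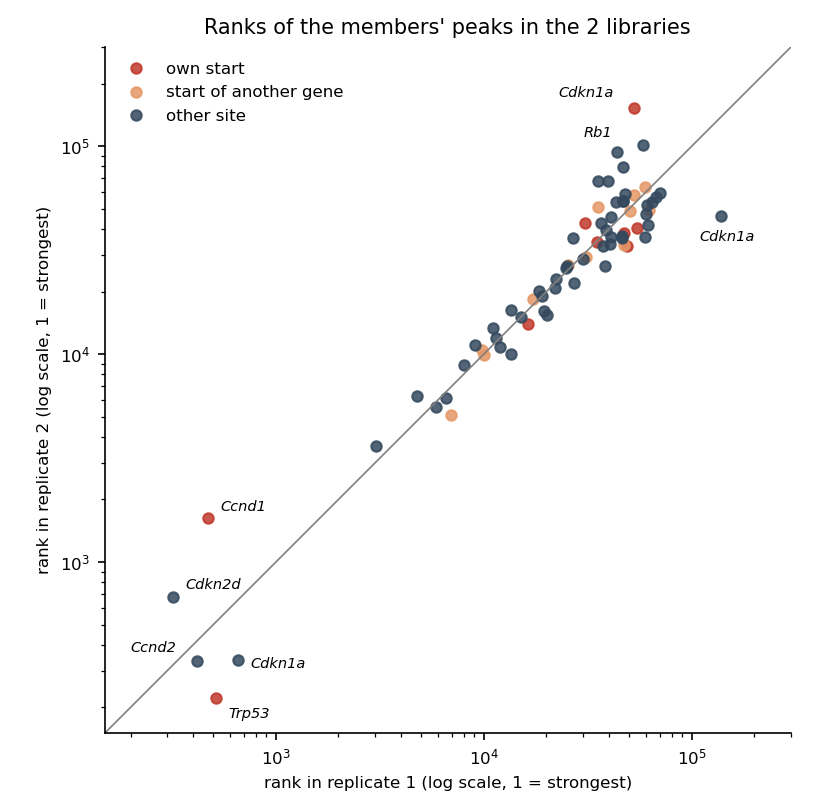
Rank of the overlapping peak of 73 summits (the p19Arf summit has none in library 2) in library 1 (horizontal axis) and library 2 (vertical axis), both logarithmic, with rank 1 the strongest. The points follow the diagonal, and the widest relative gap among them is that of the Ccnd1 intron summit, rank 472 against rank 1637.

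The median signal of the 74 summits was 59.5 (range 17.0 to 499), against 73.9 over all optimal summits. The 95% interval of the median, 46.9 to 109 by order statistics, held the value of all summits, and with a margin of 100 kb the median was 86.3, above it. The interval covers counting error only and takes the summits as independent, although many share a window, so it is no test against all summits. Of the 74, 39 fell outside the 31343 strongest optimal peaks. The 46 summits with a motif had a median signal of 130 and the 28 without one a median of 43.4, and over all optimal summits the medians were 110 and 43.8. Among the 10 summits at an own start, 5 carried a motif, with signals from 21.5 to 499, and the 5 without a motif had signals from 17.0 to 60.8. The 12 summits at the start of another gene split evenly as well, with a median of 110 for the 6 with a motif and 63.5 for the 6 without. Away from starts 35 of 52 summits (67.3%) had a motif, against 70.5% of all such summits, and at starts the share over all optimal summits was 46.4%.

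**Figure D4:**
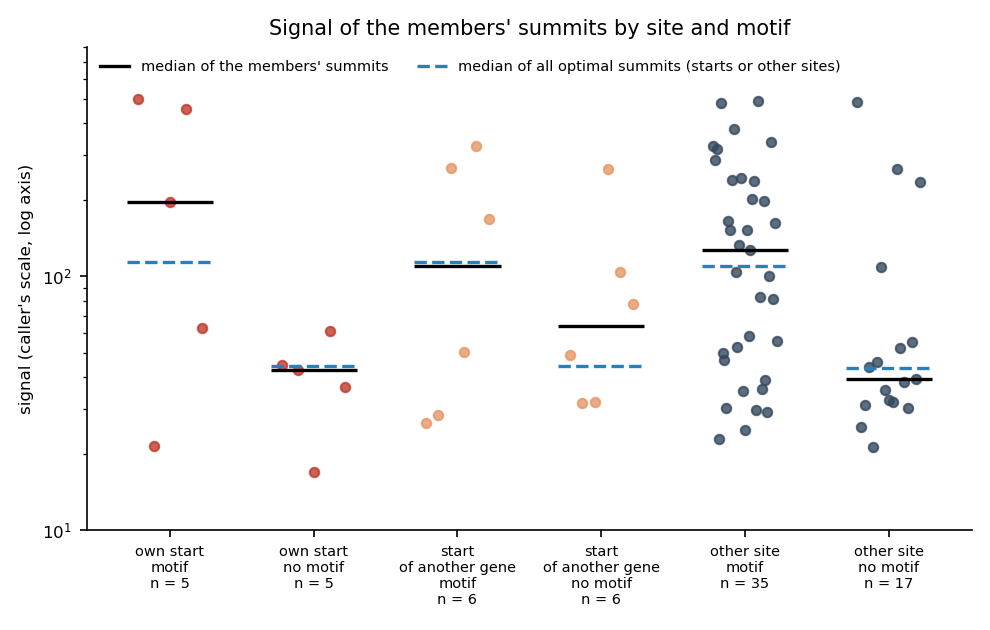
Signal (logarithmic axis, the caller's own scale) of the 74 summits by site and by presence of the motif, with solid lines for their medians and dashed lines for the medians of all optimal summits of the same kind (start or other site). At own starts the highest signal without a motif was 60.8, and with a motif it reached 499.

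A 12-base core, CCAGAAGAGGGC, recurred among the motif matches, an observation made after the sequences were seen. It stood at 11 of the 46 summits with a match (23.9%), against 13.2% of all optimal summits with a match. The sequences of the 2 weaker intronic summits of Rb1, of the summit downstream of Cdkn2c and of the strongest summit with this core, in an intron of Tigar in the Ccnd2 window, show it with similar bases before it. The rest of the 11 are not shown, and at some, such as that in the Ccnd1 window, the bases before the core differed.
Rb1 intron at 59452 bp, chr14:73266322-73266421, minus strand: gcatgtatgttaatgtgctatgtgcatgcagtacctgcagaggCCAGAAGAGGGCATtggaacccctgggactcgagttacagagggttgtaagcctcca
Rb1 intron at 44604 bp, chr14:73281170-73281269, minus strand: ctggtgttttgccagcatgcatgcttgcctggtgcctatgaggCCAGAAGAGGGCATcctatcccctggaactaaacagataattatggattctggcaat
Cdkn2c downstream, chr4:109635092-109635191, minus strand: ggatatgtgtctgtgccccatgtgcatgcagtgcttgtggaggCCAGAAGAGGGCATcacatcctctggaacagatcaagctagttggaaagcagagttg
Tigar intron in the Ccnd2 window, chr6:127105281-127105380, minus strand: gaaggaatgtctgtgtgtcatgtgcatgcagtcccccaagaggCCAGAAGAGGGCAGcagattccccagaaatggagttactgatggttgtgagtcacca
All 11 summits lay in soft-masked sequence, the part of the genome annotated as repeats, as did 91.2% of all optimal summits with this core. Their median signal was 46.9 (range 22.8 to 202), against 164 for the other 35 summits with a match, and over all optimal summits the medians were 48.9 and 130. None of the 11 lay within 1 kb of a start site, and over all optimal summits with this core 484 of 5393 did. In all, 16 of the 74 summits (21.6%) lay in soft-masked sequence, against 18.4% of all.

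The nearest motif-bearing summit outside the gene was then taken on each side and the directions of the pair were read. The pair pointed toward each other, the convergent arrangement, at Cdkn2a, Trp53 and Ccnd1, which is 3 of 10, against 28.3% of protein-coding genes with a summit on both sides. At Rb1 and Ccnd2 the pair pointed apart (24.5% of protein-coding genes). At the other 5 genes both motifs pointed the same way (47.2%).

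The Trp53 pair spanned 34680 bp, from the summit of signal 499 at the Wrap53 start to the summit of signal 240 near Shbg. The Ccnd1 pair spanned 24459 bp, from the upstream summit of signal 55.7, which lay 3563 bp from the gene, to a summit of signal 169 in LTO1. The Cdkn2a pair spanned 148359 bp and rested on the weak p19Arf summit on its upstream side, while its downstream partner had a signal of 191. These 3 genes had convergent pairs in all 7 settings compared, which were the 5 peak sets and the limits of 1 and 3 mismatches. The settings overlap in their peaks, and the share of all protein-coding genes convergent in all 7 is not given here. Among the 31343 strongest optimal peaks, which leave out the p19Arf summit, 7 of the 10 genes lay between convergent motifs, against 29.3% of all protein-coding genes, and with at most 1 mismatch 6 did, against 27.2%. Both counts include the neighbours Cdkn2a and Cdkn2b, which share their downstream summit in these settings and are not separate loci. In the full set, 1 side of the pair was often far away or weak, both at Cdkn2a and at genes without a convergent pair. The Rb1 pair spanned 278112 bp, with signals of 47.2 and 19.2, and the Ccnd2 pair spanned 157136 bp, with signals of 50.3 and 119. On the downstream side of Cdkn1a the nearest motif-bearing summit lay 76378 bp from the gene and had a signal of 283, and on its upstream side it lay 6680 bp away with a signal of 22.8. Peak lists hold no contacts between sites, so a pair of motifs describes their arrangement only.

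**Figure D5:**
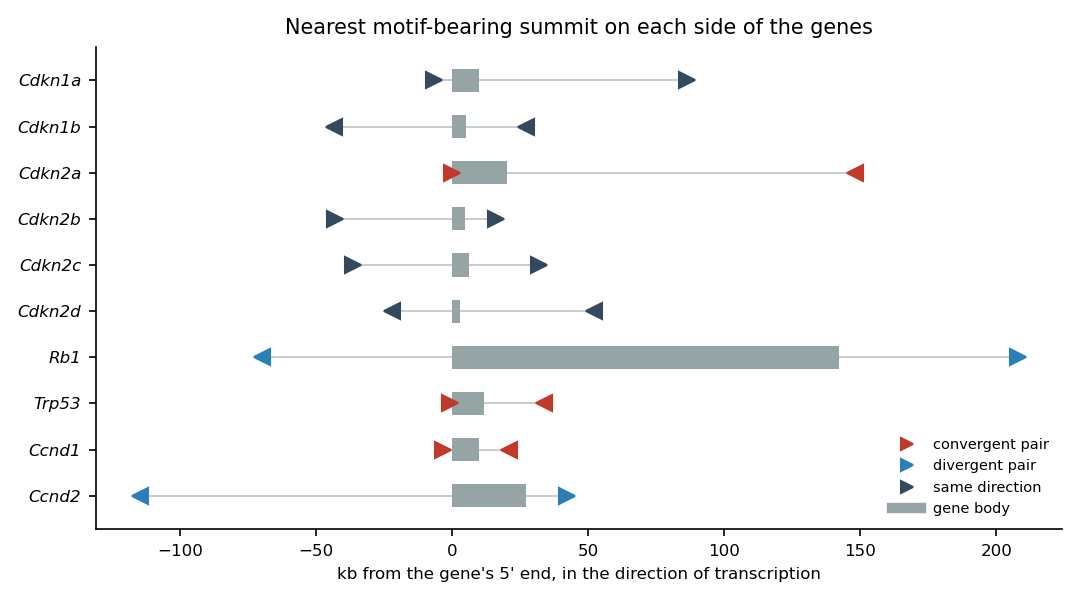
Position in kb from the 5′ end (in the direction of transcription) of the nearest motif-bearing summit outside each gene on either side, with triangles for the direction of the motif and bars for the gene body. Convergent pairs stand at Cdkn2a, Trp53 and Ccnd1, and the pair of Ccnd1 spans the shortest distance, 24459 bp.

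Of 24 other genes of the G1 to S transition, all but Ccnd3, Mdm4 and Skp2 have a CpG-rich 5′ end. The genes with an optimal summit at a start of their own were 13 of the 24. The shares given above were 39.8% of all protein-coding genes and 58.1% of those with a CpG-rich 5′ end. Among cyclins and their kinases these were 6 of 9, with the highest signals at Cdk6 (218), the partner of the D cyclins, at Ccna2 (173), the S phase cyclin, and at Cdc25a (144), a phosphatase that activates the kinases. Among relatives of Rb1 and E2F factors they were 4 of 10, led by E2f2 (272), E2f5 (58.0) and Rbl1 (47.9). In the last group, regulators of p53, proteins that act on inhibitor turnover and the CIP/KIP gene Cdkn1c, they were 3 of 5. Mdm2 (180), the ubiquitin ligase of p53, stood above Mdm4 (25.9) and Skp2 (19.3), and Cdkn1c had no summit at its starts. The third D cyclin gene, Ccnd3, had 16 summits in its window (8.22 per 100 kb) and a start summit with a signal of 22.0, below the 62.8 at the coding start of Ccnd1.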

How the data were processed

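CTCF ChIP-seq peaks of 2 libraries, mapped to their group by the labels, were used as the authors deposited them, as narrowPeak lists on mm10. The signal of a peak is a deposited score whose unit is not stated; the authors' optimal set (62686 peaks, against 59979 in the conservative set) carries pooled values, since all 62677 optimal peaks on assembled chromosomes stand in the pooled list with the same position and signal (to 0.01). The deposited summit offset in bp placed each summit. Each of aligner, caller, IDR version and IDR threshold is not given in the sources used here. Files hold no read counts, so depth is unknown and intervals cover counting error only.

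Peaks were annotated against GENCODE vM21 by summit, and the motif was searched in RefSeq GRCm38.p6. Convergent, divergent and same-direction pairs use the strand of the best match. Each optimal summit took its rank from the overlapping peak with the nearest summit in each library's list of 300000. Scripts used Python 3.11.15, numpy 2.4.6, pandas 2.3.3 and scipy 1.17.1, and were tested on simulated data, where 199 of 200 planted motifs were found at their position.

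The 10 genes, the other G1/S genes and the tests were chosen with earlier results of these data known, so no p-value is given over them; shares are set beside those of all genes or summits. Named are all 10 genes, every summit at an own start, the 3 strongest summits of each window and the nearest motif-bearing summit on each side. Other summits inside the genes, those in introns of Dnah2 and Wrap53 upstream of Trp53 and those with the recurring core were named after their values were seen. Alternatives used the conservative peaks, the 31343 strongest optimal peaks, each library alone, margins of 25 and 100 kb, promoter distances of 500 bp and 2.5 kb, the 5′ end as the only start, 1 or 3 mismatches, a motif within 25 or 100 bp, start sites of protein-coding genes alone, and summits under 150 bp apart merged. Control libraries were not used here.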

Additional observations from a re-analysis of the deposited data

How the results depend on the processing

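With the 31343 strongest optimal peaks in place of all, the windows held 35 summits instead of 74, 3 genes (Cdkn2b, Trp53 and Ccnd1) instead of 7 had a summit at an own start (20.2% of all protein-coding genes), 80.0% of summits had a motif (80.1% of all), the median signal was 235 (191 over all), and 7 genes instead of 3 had convergent flanking motifs (29.3% of all). Margins of 25 and 100 kb gave 43 and 122 summits. A promoter distance of 2.5 kb put 51.4% of summits at a start instead of 29.7%. Limits of 1 and 3 mismatches gave 29.7% and 85.1% of summits with a motif, and with 1 mismatch 6 genes had convergent motifs (27.2% of all). With the strongest peaks of 1 library alone, 4 to 5 genes had convergent motifs: 4 without replicate 2 (27.8% of all) and 5 without replicate 1 (28.3% of all). In the conservative set Cdkn1a lost its start summit, which left 6 genes (38.5% of all). The cause of these changes was not tested. Of the 49 alternative values of the main results, 37 stayed within 1.5 times a count or within the 95% interval of a share or median, which is wide: a margin of 100 kb gave a median signal of 86.3, the conservative set 78.0, and a margin of 25 kb put 39.5% of summits at a start. Of 70 alternative counts of summits for single genes, added after the data were seen, 50 stayed within 1.5 times. Unknown depth limits what an absent peak can show. No paired analysis was possible because there is a single group.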
